A study of Mus musculus with 2 samples.

Results

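The 8 genes described here encode the signalling chains of the T cell receptor complex (Cd3d, Cd3e, Cd3g and Cd247) and the constant parts of its antigen-binding chains (Trac, Trbc1, Trbc2 and Trdc). They were chosen by name, and all 8 were found among the 20887 genes listed for the LatY136F library and the 20117 listed for the CD45-KO library. Each library holds single spleen cells of mice aged 8 to 9 weeks, sorted by CD3 and CD5 on the surface and captured on the BD Rhapsody system, with 1 library per genotype. Both genotypes, LatY136F and LatY136FCD45-KO, carry LatY136F, a tyrosine-to-phenylalanine change in the adaptor LAT, and the CD45-KO mice also lack the phosphatase CD45, encoded by Ptprc. No mouse with normal LAT was analysed here. How many mice each library pools, in which cells CD45 is lost and how it was deleted are not given in the sources used here. An antibody to CD4 was among the stains, and the labels do not say if cells were selected on it.

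Cells were counted in unique molecular identifiers (UMIs), each standing for 1 captured RNA molecule. The libraries held 13775 and 12845 cells and 35300371 and 29268453 UMIs. After the filters and after removal of 130 and 181 cells with B cell, myeloid or red cell markers, 13617 LatY136F and 12653 CD45-KO cells, called T-like, remained. Their median depths were 2148 and 1983 UMIs per cell, and their median mitochondrial shares 8.59% and 9.42%. The summed level of 10 T cell markers was 5025 and 4923 CPM (UMIs per 1000000 UMIs of the library). Cd3d, Cd3e and Cd3g are among these markers and gave 1873 and 1671 CPM of the sums. The sums show T cell transcripts in both libraries, but are no check independent of the genes described here. Ptprc itself, which the CD45-KO label concerns, was at 1763 and 1183 CPM, and which part of the gene these molecules cover was not measured, so its level does not check the label. Of the cell index numbers, 223 occurred in both files. With 1 library per genotype no test between genotypes is possible. Every interval below is a 95% interval that covers counting error alone, not differences between mice or captures.

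As background, an alpha beta T cell receptor has an alpha chain made with the Trac constant gene and a beta chain made with Trbc1 or Trbc2. A gamma delta receptor has a delta chain made with Trdc and a gamma chain made with a gamma constant gene. Neither pair of chains signals by itself: they assemble with dimers of CD3 epsilon with CD3 gamma or CD3 delta and with a dimer of CD3 zeta (Cd247), whose tyrosine motifs are phosphorylated by Lck and bind ZAP-70, which phosphorylates LAT. CD45 acts on the regulatory tyrosines of Lck and Fyn.

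In their coding sequences Trbc1 and Trbc2 are near copies, and there the split of the beta chain counts rests on few bases. The 216 and 171 bases after the stop codons of Trbc1 and Trbc2 were not compared. In the GRCm38 build Trbc1 lies at chr6:41538218-41539881 and Trbc2 at chr6:41546730-41548352, both on the plus strand, 6848 bases apart, each annotated as a T cell receptor constant gene in GENCODE M21. Their coding sequences are 521 bases long and differ at 23 positions, which is an identity of 95.6%. In exon 1, the first 375 of these bases, they differ at a single position, 260, and are 99.7% identical. The 146 coding bases after exon 1, shown here because they hold the other 22 differences (identity 84.9%), are printed 5′ to 3′ with the differing bases in capitals.
Trbc1, coding bases 376 to 521: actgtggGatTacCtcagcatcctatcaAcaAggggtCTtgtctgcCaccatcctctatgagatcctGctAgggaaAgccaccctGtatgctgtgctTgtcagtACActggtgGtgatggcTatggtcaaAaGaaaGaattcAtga
Trbc2, coding bases 376 to 521: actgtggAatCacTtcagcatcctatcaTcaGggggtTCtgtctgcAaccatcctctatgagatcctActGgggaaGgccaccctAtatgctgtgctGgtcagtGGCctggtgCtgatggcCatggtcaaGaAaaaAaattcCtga
The bases around the difference in exon 1 are shown as the contrast, since a read from this stretch separates the genes by 1 letter.
Trbc1, coding bases 240 to 280: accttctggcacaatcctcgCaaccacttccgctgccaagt
Trbc2, coding bases 240 to 280: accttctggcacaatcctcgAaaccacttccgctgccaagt
The labels and file headers do not say how the authors' pipeline counted reads that match both genes. The Trbc1 and Trbc2 values are therefore uncertain where reads fall in the shared stretches, and their sum is given beside them.

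Between the libraries, the levels of 6 of the 8 genes were lower in CD45-KO T-like cells and 2 were higher. The delta constant gene Trdc and the beta constant gene Trbc2 were lower by more than 1.5-fold, while the CD3 genes and Trac differed by less. All 8 genes passed the minimum of 20 CPM in at least 1 library, as did 6658 genes in all. Among those 6658 genes, the share lower by at least 1.5-fold was 3.75% and the share higher by as much was 1.86%, against 2 and 0 of the 8 members. The median log2 ratio of the 8 members was -0.18 and that of all 6658 genes 0.01.

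Trdc was at 59.9 CPM in LatY136F and 20.2 CPM in CD45-KO cells, a log2 ratio of CD45-KO over LatY136F of -1.57 (-1.70 to -1.43). Trbc2 was at 3392 and 2213 CPM, a log2 ratio of -0.62 (-0.63 to -0.60), which stands at the 3.32 percentile of all genes compared. With mitochondrial and ribosomal protein genes left out of the totals it was -0.58, just short of 1.5-fold. Trbc1 went the other way, with 182 and 218 CPM and a log2 ratio of 0.26 (0.21 to 0.32). The sum of Trbc1 and Trbc2 was 3574 and 2431 CPM, a log2 ratio of -0.56 (-0.57 to -0.54). This sum does not depend on how counted reads were divided between the genes. It would depend on any reads matching both that were dropped or counted for both. Trac was at 2220 and 1853 CPM, a log2 ratio of -0.26 (-0.28 to -0.24). The beta chain total was further below its LatY136F level than the alpha chain, with counting intervals that do not overlap.

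The chain genes of the CD3 dimers were each slightly lower in CD45-KO cells. Cd3e, the chain shared by both CD3 dimers, was at 753 and 653 CPM (log2 ratio -0.21, -0.23 to -0.18). Cd3d was at 413 and 369 CPM (-0.16, -0.20 to -0.13), and Cd3g at 707 and 649 CPM (-0.12, -0.15 to -0.10). In cells with at most 10% mitochondrial counts the ratio of Cd3g was -0.04. Cd247 was at 43.9 and 46.8 CPM, and its log2 ratio of 0.09 had an interval that included 0 (-0.01 to 0.20). Without the 5% of cells with most UMIs in each library, the ratio of Cd247 was -0.02, so its direction is not settled here.

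**Figure D1:**
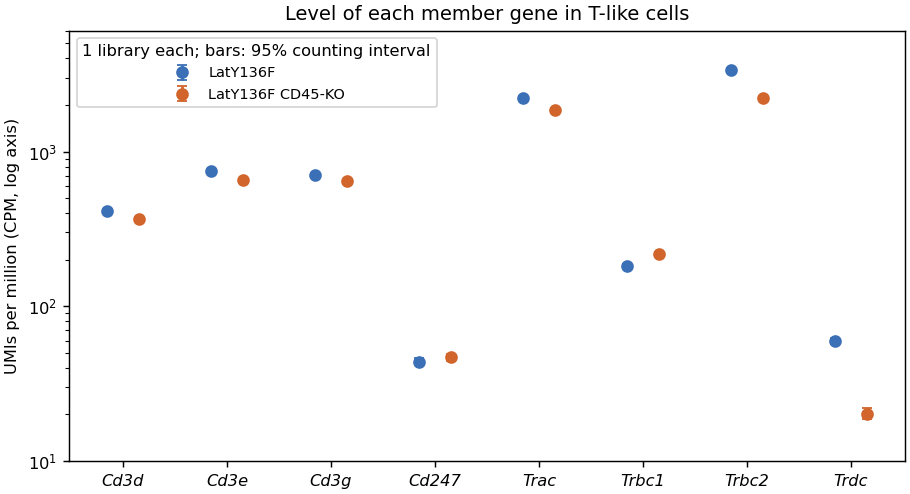
Level of each of the 8 genes in T-like cells of both libraries, in CPM on a log axis, with 95% counting intervals that are mostly smaller than the points. The blue LatY136F point lies above the orange CD45-KO point for all genes except Cd247 and Trbc1, and the gap is widest for Trdc, at 59.9 and 20.2 CPM.

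The cells were also compared by depth, in groups set within each library. Depth was thus not matched between libraries, with medians of 4030.5 UMIs in LatY136F and 3304 UMIs in CD45-KO in the deepest groups. When the cells of each library were split into 5 nearly equal groups by their UMI totals, Trbc2 ranged from 3100 to 3622 CPM over the LatY136F groups and from 2178 to 2251 CPM over the CD45-KO groups, without overlap. Trac ranged from 2110 to 2301 and from 1835 to 1884 CPM, also without overlap. Trbc1 did not overlap either and was higher in CD45-KO, with 171 to 199 CPM against 199.5 to 231 CPM, although the nearest groups were almost level. Cd247 ranged from 40.8 to 45.1 CPM and from 41.1 to 52.4 CPM, so the libraries overlapped for this gene. Cd3g overlapped as well, with 668 to 760 CPM and 625 to 669 CPM.

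The genes of the CD3 dimers are neighbours on chromosome 9. Cd3g (chr9:44969572-44980431, minus strand) and Cd3d (chr9:44981786-44987339, plus strand) start 1355 bases apart and are read in opposite directions. Cd3e (chr9:44998740-45009627, minus strand) ends 11401 bases beyond the end of Cd3d, and Cd247 lies apart at chr1:165788681-165877277 on the plus strand. All are protein-coding genes. The RefSeq promoter table (GRCm38.p6) held 4 of the 8 genes, and the 250 bases before each RefSeq start are shown because Cd3d, Cd3e and Cd3g varied together across cell states, as the correlations over gates show. Each is printed 5′ to 3′ on its gene's strand, with matches to 4 short motifs on either strand in capitals. The RefSeq start of Cd3e lies inside the GENCODE gene given above, so its window overlaps the first bases of that gene.
Cd3g, chr9:44980432-44980681, minus strand: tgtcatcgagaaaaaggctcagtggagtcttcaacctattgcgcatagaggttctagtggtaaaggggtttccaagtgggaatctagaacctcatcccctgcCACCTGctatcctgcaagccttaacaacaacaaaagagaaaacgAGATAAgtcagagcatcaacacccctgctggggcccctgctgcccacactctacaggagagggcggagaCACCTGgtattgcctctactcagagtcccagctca
Cd3d, chr9:44981536-44981785, plus strand: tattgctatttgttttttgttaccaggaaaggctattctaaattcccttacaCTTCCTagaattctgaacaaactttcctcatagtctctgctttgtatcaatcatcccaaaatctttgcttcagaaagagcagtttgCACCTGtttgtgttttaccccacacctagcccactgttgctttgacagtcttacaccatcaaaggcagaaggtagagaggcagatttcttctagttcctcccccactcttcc
Cd3e, chr9:45009612-45009861, minus strand: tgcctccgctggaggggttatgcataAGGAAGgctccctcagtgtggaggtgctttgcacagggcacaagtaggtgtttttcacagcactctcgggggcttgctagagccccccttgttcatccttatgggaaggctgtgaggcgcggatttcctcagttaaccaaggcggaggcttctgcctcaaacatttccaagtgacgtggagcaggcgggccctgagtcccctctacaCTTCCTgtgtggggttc
Cd247, chr1:165788431-165788680, plus strand: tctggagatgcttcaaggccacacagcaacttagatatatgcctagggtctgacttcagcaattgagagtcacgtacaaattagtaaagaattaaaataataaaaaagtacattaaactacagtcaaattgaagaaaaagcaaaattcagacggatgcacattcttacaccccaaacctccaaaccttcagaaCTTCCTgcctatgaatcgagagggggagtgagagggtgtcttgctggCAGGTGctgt
The motifs searched were AGGAAG, a core of ETS factor sites, CACCTG, a form of the E protein site, TGTGGT, a core of RUNX sites, and AGATAA, a core of GATA sites, and none of the matches overlapped each other. The ETS letters occurred once upstream of Cd3d, 2 times upstream of Cd3e and once upstream of Cd247, and in 29.5% of the 32817 windows of the same length in the table. The E protein letters occurred 2 times upstream of Cd3g and once each upstream of Cd3d and Cd247, and in 17.2% of all windows. The GATA letters occurred once, upstream of Cd3g (9.99% of all windows), and the RUNX letters in none of the 4 windows (14.0% of all). A match is a description of the letters and shows no binding.

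Overlapping genes bear on some of these counts, since the labels and file headers do not say if counting used strand. The 3′ part of Cd247 overlaps the oppositely read Pou2f1 by 12124 bases. Pou2f1 held 1553 and 1671 UMIs over all cells before filtering, against 1518 and 1323 UMIs of Cd247 in T-like cells. Cd3e overlaps the antisense gene Gm48719, which held 18 and 16 UMIs over all cells, against 26081 and 18468 of Cd3e in T-like cells. The Cd247 level is thus the one that an unstranded count could affect most.

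To compare detection at equal depth, each cell was thinned to 1000 UMIs, which left out 432 and 357 shallower cells and kept 13185 and 12296. At that depth the share of cells with a UMI was lower in CD45-KO for 7 of the 8 genes. Trbc2 was found in 94.7% of LatY136F cells and 82.9% of CD45-KO cells, and its median count was 3 and 2 UMIs per 1000. Trac was found in 86.2% and 79.9%, Cd3e in 52.6% and 46.6%, Cd3g in 48.9% and 46.1%, and Cd3d in 32.9% and 29.2%. Only Trbc1 was found in more CD45-KO cells, with 12.4% and 15.5%. Cd247 was found in 4.32% and 4.20% of cells and Trdc in 2.75% and 1.19%, and the intervals of Cd247 overlapped (3.98% to 4.68% and 3.86% to 4.57%). Without thinning, the shares were 98.9% and 93.3% for Trbc2, 96.5% and 93.3% for Trac, 77.9% and 70.1% for Cd3e and 21.4% and 25.1% for Trbc1.

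Free RNA gives some of these UMIs. It was gauged in cells of the B, myeloid or red cell gate that had no UMI of 8 T cell genes, of which there were only 7 LatY136F cells with a median of 1760 UMIs and 22 CD45-KO cells with a median of 4659. Of the 5 and 21 that could be thinned to 1000 UMIs, Trac was found in 3 and 3 cells and Trbc2 in 2 and 3 cells. Cd3d, Cd3g, Cd247, Trbc1 and Trdc were found in none of these cells, and Cd3e in 1 CD45-KO cell. In CD45-KO the shares in T-like cells were above the upper limits of the background for Trac and Trbc2 (36.3% each), Cd3e (23.8%), Cd3d and Cd3g (16.1% each). In LatY136F only 5 background cells were left, whose upper limits were 94.7% for Trac and 85.3% for Trbc2. For Cd247, Trbc1 and Trdc a background at their own level was within the limits of both libraries.

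The co-occurrence of the chains per cell followed the single genes. At 1000 UMIs, 82.5% of LatY136F cells but 69.4% of CD45-KO cells held a UMI of both Trac and a Trbc gene. Cells with Trac and no Trbc made up 3.72% and 10.5%, and those with Trbc and no Trac 13.1% and 17.3%. Cells with neither were 0.721% and 2.76%, and cells with no UMI of any of the 8 genes 0.144% and 0.691%. None of the 4 CD3 chain genes was seen in 16.2% and 19.99% of thinned cells, 2 of them in 34.0% and 29.7%, and 3 in 9.84% and 7.84%. With all counts, cells with neither Trac nor Trbc numbered 9 of 13617 and 64 of 12653.

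**Figure D2:**
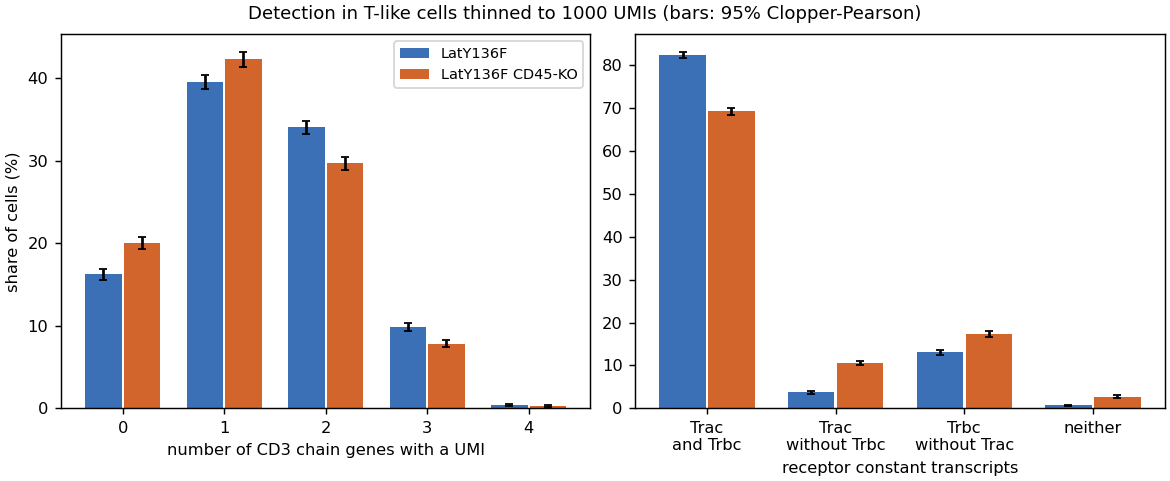
Share of T-like cells, thinned to 1000 UMIs, by the number of CD3 chain genes with a UMI (left) and by the receptor constant transcripts found (right), for LatY136F (blue) and CD45-KO (orange) with 95% Clopper-Pearson intervals. Cells with both Trac and Trbc make up 82.5% and 69.4%, and all 3 incomplete classes on the right are larger in CD45-KO.

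Most T-like cells with a Trbc1 UMI also held Trbc2. With all counts, 21.1% of LatY136F cells and 22.4% of CD45-KO cells held UMIs of both, and in thinned cells 11.6% and 11.7%. Trbc1 without Trbc2 was found in 36 LatY136F cells (0.264%) and 336 CD45-KO cells (2.66%). Neither gene was found in 113 and 513 cells (0.830% and 4.05%). Among cells with Trbc1, Trbc2 was found in 98.8% of LatY136F cells, about its share among cells without Trbc1 (98.9%). In CD45-KO cells these shares were 89.4% and 94.6%, and their intervals (88.3% to 90.5% and 94.1% to 95.04%) did not overlap. In thinned cells the same shares were 93.2% and 94.9% in LatY136F and 75.6% and 84.3% in CD45-KO.

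The share of Trbc1 among all Trbc UMIs was 5.09% in LatY136F and 8.99% in CD45-KO cells. Among cells with at least 5 Trbc UMIs, 10468 and 6330, a Trbc1 share of at most 10% was found in 83.2% and 73.9%. A share between 10% and 90% was found in 16.8% and 25.6%, and a share of at least 90% in 4 and 30 cells. Cells in which Trbc1 made up more than 50% numbered 134 (1.28%, 1.07% to 1.51%) and 256 (4.04%, 3.57% to 4.56%). With all counts, background cells held a mean of 1.14 and 1.18 Trbc2 UMIs, and a cell with few Trbc UMIs reaches a Trbc1 share of 90% only without any Trbc2 UMI. The part of free RNA in the mixed class was not tested.

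**Figure D3:**
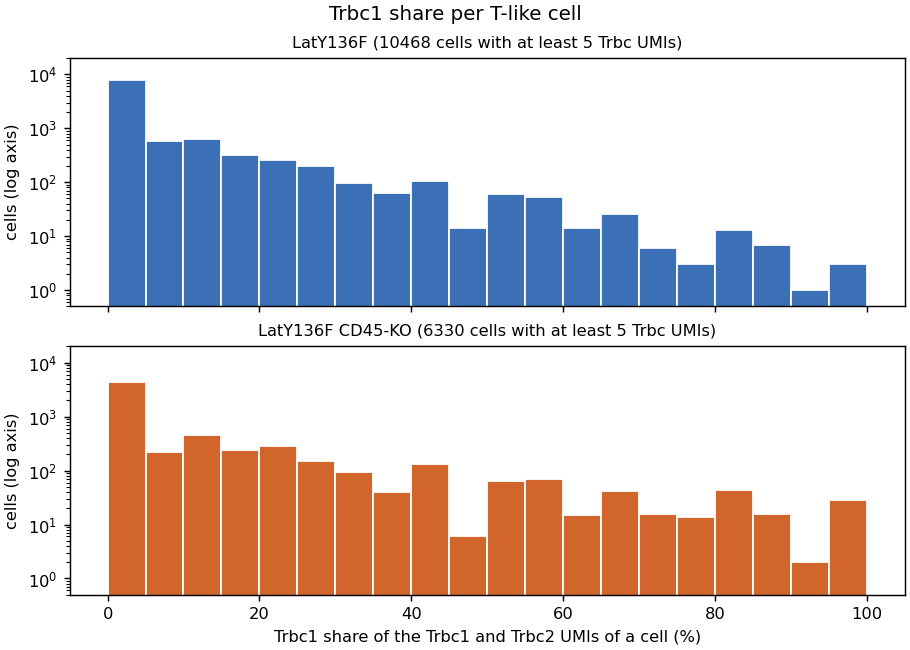
Number of T-like cells (log axis) by the Trbc1 share of their Trbc1 and Trbc2 UMIs, in steps of 5 percentage points, for cells with at least 5 such UMIs in LatY136F (top) and CD45-KO (bottom). The lowest step holds 8005 and 4401 cells, and the highest step 3 and 28 cells.

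A joining segment limits which constant gene a beta chain can use: Trbj2 segments lie between Trbc1 and Trbc2 and are used with Trbc2, while Trbj1 segments lie before both. A Trbj1 UMI without Trbj2 was found in 45 LatY136F and 55 CD45-KO cells. In these, Trbc1 made up 21.8% (18.1% to 25.9%) and 20.3% (16.7% to 24.3%) of Trbc UMIs. In the 163 and 84 cells with Trbj2 and without Trbj1 it made up 5.31% (4.39% to 6.36%) and 7.93% (5.88% to 10.4%). The Trbc1 share was thus higher beside Trbj1 in both libraries, with intervals that do not overlap. Trbc2 held most Trbc UMIs beside either segment group, and the source of the Trbc2 UMIs beside Trbj1 was not tested. With all counts, Trbc2 was also found in 6 of 7 LatY136F and 13 of 22 CD45-KO background cells.

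Beta variable segments differed between these classes too. In the 256 CD45-KO cells with more than 50% Trbc1, 39 of the 65 Trbv UMIs were of Trbv12-2 and 10 of Trbv2. In the 4681 CD45-KO cells with at most 10% Trbc1, Trbv19 led with 176 of 868 Trbv UMIs, before Trbv13-2 with 143. In LatY136F the 134 cells above 50% held only 18 Trbv UMIs, and the 8710 cells at or below 10% were led by Trbv13-2 with 600 of 1868. The leading segment thus differed between the Trbc1-rich and Trbc1-poor cells of CD45-KO, over cells that may share a clone. In the cells with no Trbc UMI, Trbv2 led with 3 of 6 Trbv UMIs in LatY136F and 28 of 57 in CD45-KO. Those cells held a mean of 3.05 and 2.79 Trac UMIs.

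Trdc, annotated as a receptor constant gene at chr14:54142851-54148868 on the plus strand, lies 71652 bases before Trac (chr14:54220521-54224206, plus strand) within the alpha chain locus. It was found in 567 LatY136F cells (4.16%) and 214 CD45-KO cells (1.69%). Almost all of these cells also held Trac, 550 of 567 (97.0%) and 209 of 214 (97.7%), as did 96.5% and 93.2% of cells without Trdc. A Trbc UMI was found in 564 and 200 of the Trdc cells, and both Trac and Trbc in 547 and 197. In thinned cells, Trac was found in 85.4% and 82.2% of the Trdc cells. With all counts, Trac was also found in 6 of 7 LatY136F and 6 of 22 CD45-KO background cells, and Trbc2 in 6 of 7 and 13 of 22, so a UMI of either gene does not show that the cell itself made it.

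Few cells held most of the Trdc UMIs. The 152 LatY136F cells with at least 5 Trdc UMIs held 70.7% of them, and the 33 such CD45-KO cells 51.7%. Of these 152 cells, 144 held Trac and all 152 held Trbc, and of the 33 CD45-KO cells all 33 held both. Their median depth was 2646 and 2427 UMIs, against 2140.5 and 1980 UMIs in cells without Trdc. Cd4 was found in 69.1% and 72.7% of them, against 66.6% and 66.3% of cells without Trdc. In cells thinned to 1000 UMIs the order of these values turned. Cd4 was then found in 34.9% (27.8% to 42.6%) of LatY136F cells with at least 2 Trdc UMIs and in 41.9% of those without. The CD45-KO shares were 35.3% (22.4% to 49.9%) and 43.9%, and both intervals include the value of the cells without Trdc. At that depth Trac was found in 81.1% (74.3% to 86.7%) of LatY136F cells with at least 2 Trdc UMIs against 86.2% of those without. In CD45-KO it was found in 92.2% (81.1% to 97.8%) of only 51 such cells, against 79.9% of those without. The LatY136F interval includes the value of the cells without Trdc.

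Gamma constant transcripts were counted by the number of Trdc UMIs in the cell. A UMI of Tcrg-C1, Tcrg-C2 or Tcrg-C4 was found in 1.77% of cells with no Trdc, 3.34% with 1 UMI, 7.76% with 2 to 4 and 18.4% (12.6% to 25.5%) with at least 5. In LatY136F cells thinned to 1000 UMIs the shares were 1.17%, 4.66%, 14.1% and 7.32% (1.54% to 19.9%), so the highest class was not the highest share at equal depth. In CD45-KO cells with all counts the shares were 3.79%, 4.39%, 7.46% and 6.06% (0.742% to 20.2%), with intervals that overlap. A delta variable segment was found in 19 of the 152 LatY136F cells with at least 5 Trdc UMIs and in 1 of the 33 CD45-KO cells. Without Trdv5, which overlaps Trdc on the opposite strand, the numbers were 15 and 0. Gamma constant and delta variable transcripts together were found in 7 and 0 of the 152 and 33 cells. Of the 17 and 5 cells with Trdc and no Trac, 10 and 0 held a gamma constant UMI.

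**Figure D4:**
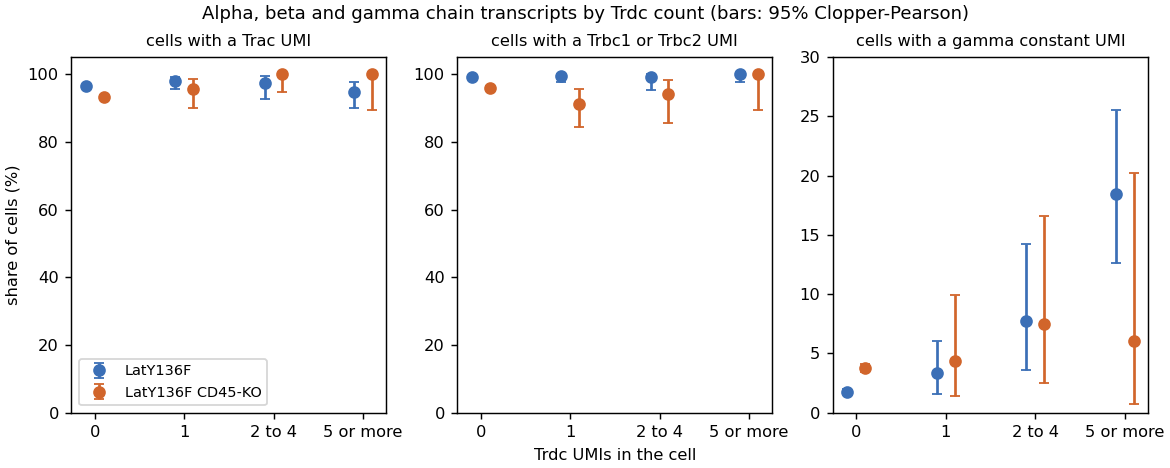
Share of T-like cells with a UMI of Trac (left), Trbc1 or Trbc2 (middle) and a gamma constant gene (right, on a shorter axis) by the number of Trdc UMIs in the cell, with all counts and 95% Clopper-Pearson intervals, for LatY136F (blue) and CD45-KO (orange). Trac and Trbc stay above 90% in every class, and the gamma constant share is 18.4% in LatY136F cells with 5 or more.

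Other markers of gamma delta T cells were not lower with Trdc as a list. Of 11 such genes other than Trdc, 7 were higher in CD45-KO and their summed level was 36.1 and 55.6 CPM, with Il23r and Tcrg-C3 at 0 in both libraries. Tcrg-C1 was at 6.18 and 11.6 CPM, Tcrg-C2 at 11.4 and 15.9, and Tcrg-C4 at 5.84 and 7.47, all under the 20 CPM minimum. Sox13, at 8.87 and 16.9 CPM, also added to the higher sum. Trdv4 (9 and 4 UMIs) and Zbtb16 (20 and 6 UMIs) were lower in CD45-KO, as Trdc was, on few UMIs. The NK cell list had 7 of 8 genes higher in CD45-KO, with Ncr1 at 0 in LatY136F, but a lower sum (106 and 61.0 CPM) because Gzma, which activated T cells also express, was at 79.4 and 19.2 CPM. The part of these cells in the Trdc difference was not tested. Trdc also overlaps the antisense gene Gm43434 and the end of Trdv5. These held 6 and 3 and 9 and 2 UMIs over all cells before filtering, against 2074 and 572 UMIs of Trdc in T-like cells.

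Cells were then gated on transcripts of other genes, and the libraries were compared within each gate. Gates overlap, and 17 of them held at least 50 cells in both libraries. Foxp3-positive cells (29 in CD45-KO) and cells with Cd8 and no Cd4 (22 and 25) were too few. Trbc2 was lower in CD45-KO in all 17 gates, with an interval below 0 in each, and by at least 1.5-fold in 8. Its log2 ratio ranged from -0.71 in cytotoxic or NK-like cells (4084 and 2502 CPM) to -0.33 in Tfh-like cells (4174 and 3326 CPM), with a median of -0.56. Trdc was lower by at least 1.5-fold in all 17, from -3.95 in cycling cells (326 and 6 UMIs) to -0.95 in Il2ra-positive Foxp3-negative cells. The intervals of the interferon-high and stressed cells, which held few Trdc UMIs, included 0. In gates set on thinned cells Trdc was lower in 15 of 16, and the exception was the stressed cells, at 0.73 (-2.05 to 6.16). The interval also included 0 in the Tfh-like, cytotoxic or NK-like, Gzmb-positive, Ifi208-positive, Ikzf2-positive Foxp3-negative and Il2ra-positive Foxp3-negative gates. Thinned CD45-KO cells of the cycling and cytotoxic or NK-like gates held no Trdc UMI. Their ratios, -1.31 and -0.82, thus rest on the value set for a count of 0. Weighting cycling, Tfh-like, naive-like and other cells to the same mix gave -0.66 for Trbc2 and -1.67 for Trdc.

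Trbc1 was higher in CD45-KO in 15 of the 17 gates, with an interval above 0 in 13. The ratio was highest in interferon-high cells, at 154 and 291 CPM (log2 ratio 0.91, 0.46 to 1.37). It was near 0 in naive-like cells, at 185 and 184 CPM (-0.01, -0.11 to 0.10), and negative in cells with a gamma constant UMI, at 193 and 173 CPM (-0.16, -0.48 to 0.16). Naive-like cells, gated on Ccr7, Lef1 and similar genes of resting cells, were 2542 and 3130 in number, so this small ratio rests on many cells. As a share of Trbc UMIs, Trbc1 was higher in CD45-KO in all 17 gates, from 5.77% and 6.59% in gamma constant-positive cells to 4.72% and 12.7% in interferon-high cells. In gates set on thinned cells, Trbc1 was higher in 11 of 16.

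Trac was lower in CD45-KO in 16 gates, with an interval below 0 in 14. The exception was Tfh-like cells, gated on Cxcr5, Il21, Bcl6 and similar genes of follicular helper cells. There Trac was at 2270 CPM in 167 LatY136F cells and 2471 CPM in 246 CD45-KO cells (log2 ratio 0.12, 0.03 to 0.21), against -0.28 in all other T-like cells. When the gate and the levels were taken from thinned cells the ratio was -0.01, so the sign depends on how the gate is set. Cd3d, Cd3e and Cd3g were lower in 16, 15 and 14 gates, and no ratio of theirs reached 1.5-fold.

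Cd247 was above its LatY136F level in 16 of 17 gates, but its interval lay above 0 in only 4. In cycling cells, gated on Mki67, Top2a and other genes of division, it was at 31.4 CPM in 1062 LatY136F cells and 48.3 CPM in 265 CD45-KO cells (log2 ratio 0.62, 0.24 to 1.00). This was the only gate in which a CD3 chain gene passed 1.5-fold. These values rest on 194 and 85 UMIs. Klrg1-positive cells were the 1 gate with a lower value, at 49.3 and 43.9 CPM.

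**Figure D5:**
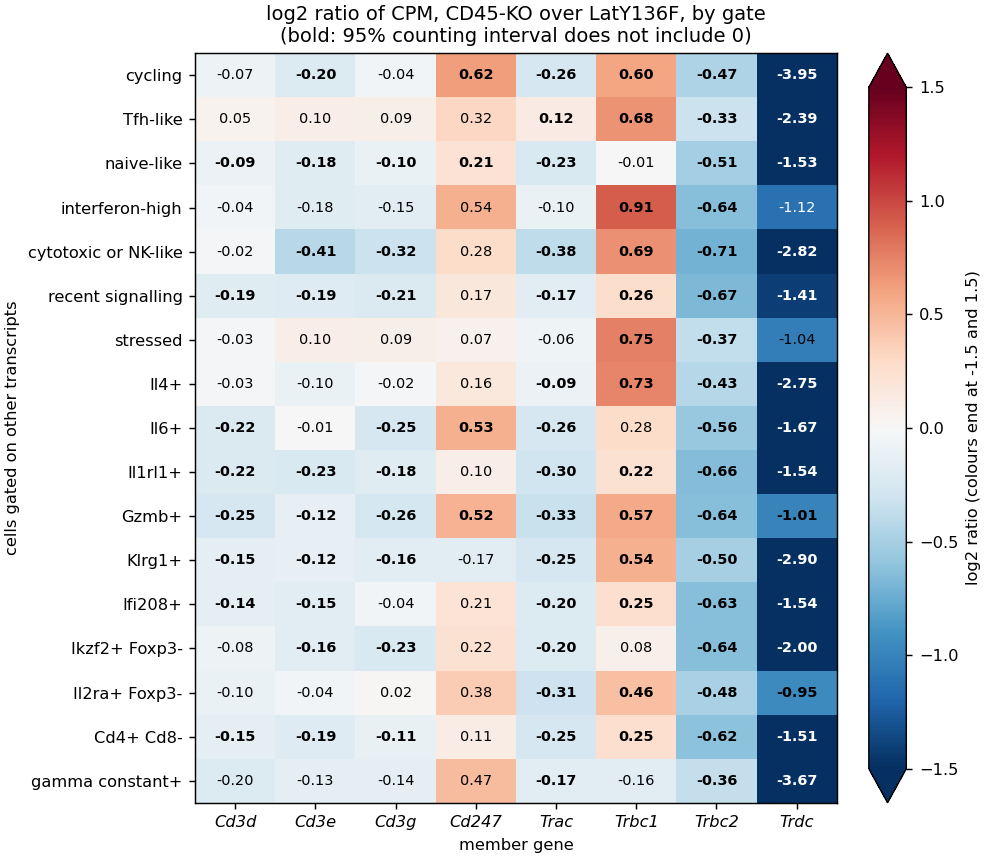
Log2 ratio of CPM, CD45-KO over LatY136F, for each of the 8 genes (columns) in 17 overlapping gates (rows), with blue for lower and red for higher in CD45-KO, and bold where the 95% counting interval does not include 0. The Trbc2 and Trdc columns are blue throughout, the Trbc1 column is red in 15 of 17 rows, and the only positive Trac value, 0.12, is in the Tfh-like row.

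The receptor genes were also compared between states within each library. In LatY136F, Trbc2 was at 2593 CPM in cycling and 3565 CPM in other cells (log2 ratio -0.46), Trac at 1922 and 2285 CPM (-0.25) and Cd247 at 31.4 and 46.6 CPM (-0.57). In CD45-KO, Trbc2 was at 1875 and 2235 CPM (-0.25) and Trac at 1608 and 1870 CPM (-0.22). Cd247 was close to level there, at 48.3 and 46.7 CPM (0.05, -0.29 to 0.37), as was Trbc1, at 218.3 and 218.5 CPM, against 144 and 190 CPM (-0.40) in LatY136F. None of the 8 genes was lower by 1.5-fold there, against 15.8% of genes compared. In CD45-KO cycling cells only Trdc was, at 3.41 and 21.4 CPM, against 19.6% of genes. Cycling cells were far deeper, with medians of 4890.5 and 5506 UMIs against 2077 and 1966, and the part of depth in these differences was not tested.

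Tfh-like cells had the highest level of 7 of the 8 genes in CD45-KO. For Cd3d (565 and 546 CPM) and Cd247 (106 and 68.2 CPM) the interval overlapped that of cytotoxic or NK-like cells, the next gate. Relative to other CD45-KO cells, Trbc1 was at 502 and 208 CPM (log2 ratio 1.27, 1.13 to 1.40), Cd247 at 106 and 44.7 CPM (1.25, 0.94 to 1.54) and Cd3g at 1051 and 635 CPM (0.73, 0.64 to 0.82). Cd3d (0.64) and Trbc2 (0.61) also passed 1.5-fold, so that 5 of the 8 genes did, against 19.5% of all genes compared, while Trdc was lower, at 12.2 and 20.5 CPM with an interval that included 0. In LatY136F the Tfh-like level passed 1.5-fold for 2 genes, Cd247 at 85.1 and 43.0 CPM (0.99) and Trbc1 at 314 and 179 CPM (0.81), against 18.3% of genes. Cd3g followed with 989 and 701 CPM (0.50), and Trac was level, at 2270 and 2219 CPM (0.03, -0.04 to 0.10). Tfh-like cells had median depths of 3417 and 3507 UMIs, against 2139 and 1969 in the others, and the part of depth was not tested here either.

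The order of levels over gates was read with its intervals. In LatY136F, Cd3d was highest in cytotoxic or NK-like cells at 553 CPM and next in Tfh-like cells at 544, which overlapped, and lowest in cycling cells at 342 and stressed cells at 362, which overlapped too. Cd3e followed a similar order, from 594 CPM in stressed to 1003 CPM in cytotoxic or NK-like cells. Trac varied least, from 1892 CPM in interferon-high to 2319 CPM in cells with recent signalling, gated on Nr4a1, Egr1 and related early genes. Trdc varied most, from 7.44 CPM in interferon-high cells (4 UMIs) to 384 CPM in cells with a gamma constant UMI, clear of the 137 CPM in cytotoxic or NK-like cells. In CD45-KO cells the gamma constant gate was at 30.2 CPM of Trdc and no longer apart from Gzmb-positive cells at 29.7.

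Across 33 sums of at least 100 cells (gates by library), the levels of the CD3 dimer genes varied together. Pearson correlations of log2(CPM + 5), given as a description because gates share cells and libraries, were 0.89 for Cd3d with Cd3e, 0.83 for Cd3d with Cd3g and 0.86 for Cd3e with Cd3g. Trac correlated best with Trbc2 (0.84) and Cd247 with Trbc1 (0.82), while Trbc1 and Trbc2 had a correlation near 0 (-0.0011). That last value pools both libraries, between which Trbc2 was lower and Trbc1 higher in CD45-KO. It does not describe states within a library. Trbc1 and Trbc2 were both highest in Tfh-like cells, at 314 and 4174 CPM in LatY136F and 502 and 3326 CPM in CD45-KO. In LatY136F both overlapped the next gate, and in each library their lowest gates differed. Among 3570 other genes with a mean of at least 50 CPM, those most like Cd3d were Lck (0.95), the kinase that phosphorylates the CD3 chains, the costimulatory receptor gene Cd28 (0.93) and Nab1 (0.90). For Cd3e they were Lck (0.90), the inhibitory receptor gene Tigit (0.88) and Lbh (0.87), and for Cd3g they were Lbh, Gng2 and Arf3 (0.92 each, 0.915 for Arf3). Ptprc was the gene most like Trbc2 (0.97), followed by Higd2a (0.90) and Ucp2 (0.89), and was the second for Trac (0.82), after Pfkp (0.82) and before Mink1 (0.82). Both Ptprc and Trbc2 were lower in CD45-KO, a difference that these correlations contain. Trbc1 was most like Ipcef1 (0.94), Limd2 (0.93) and Agpat3 (0.92), Cd247 most like Tmem106b (0.86), Dennd2d (0.85) and the kinase gene Fyn (0.85), and Trdc less closely like Aspscr1, Lin37 and Carmil2 (0.78, 0.78 and 0.77).

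Genes whose products work beside the receptor complex were compared between the libraries in the same way. The list of coreceptors, kinases, adaptors and regulators had 43 names, of which 39 were in the files and 30 passed the 20 CPM minimum. Of these 30, 2 were lower in CD45-KO by at least 1.5-fold and 0 were higher, against 3.75% and 1.86% of all genes compared. Of the 30, 11 lay below 0 and 19 above, and their median log2 ratio was 0.08. The lower pair were Trat1, which encodes a transmembrane adaptor that associates with the receptor complex, at 1015 and 528 CPM (log2 ratio -0.94, -0.97 to -0.92), and Ptprcap, which encodes a CD45-associated protein, at 975 and 557 CPM (-0.81, -0.84 to -0.78). Ptprc followed with -0.58. Among the higher ones were the exchange factor gene Vav1 (0.37) and the surface receptor gene Cd6 (0.34). The kinase gene Lck was at 684 and 613 CPM (-0.16), close to Cd3d, and the LAT gene itself at 426 and 380 CPM (-0.17).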

How the data were processed

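The authors deposited 1 table of UMI counts (cells by genes) per library, corrected for UMI errors and not normalized. BD pipeline version 1.9.1, GRCm38 and GENCODE M19 are given, per the file headers. Pipeline 2.0 and Seurat 4.04 appear in the design text and GRCm39 in the submitters' processing notes, and the headers were followed.

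Cells needed 200 genes or more and no more than 25% mitochondrial counts, which removed 28 and 11, and cells with at least 2 B, myeloid or red cell markers were set aside. Doublets were not called. They were weighed by leaving out the 5% of cells with most UMIs. UMIs were summed per library or gate and scaled to 1000000 (CPM). Gates asked for at least 3 cycling, 4 interferon, or 2 genes of the other lists, or for 1 UMI of a single gene. The stressed gate asked for a UMI of Hspa1a or Hspa1b. Ratios have exact conditional binomial 95% intervals of Poisson counts, levels exact Poisson intervals and shares exact Clopper-Pearson intervals. A count of 0 was set to 3 counts for the ratio itself. Interval code was tested on simulated data. With 1 library per genotype no test was run. The text names the 8 members, the 6 partner genes with the largest ratios except 1 that is not reported here, and the 3 genes most like each member in log2(CPM + 5). Lck, Lat and the gamma constant genes of the partner list were added after their values were seen, as were the split by depth and the segment counts. The members and lists were chosen with earlier results of these data known. Alternatives covered scaling (with edgeR 4.0.16 for TMM factors), cell filters, thinning and minimum counts. Python 3.11.15, numpy 2.4.6 and scipy 1.17.1 were used.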

Additional observations from a re-analysis of the deposited data

Results flagged for a closer look

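Trac went in opposite directions inside and outside the Tfh-like gate. Its log2 ratio of CD45-KO over LatY136F was 0.12 (0.03 to 0.21) in Tfh-like cells and -0.28 (-0.29 to -0.26) in the T-like cells that are not Tfh-like. With 1 library per genotype this difference was not tested, and the ratio in Tfh-like cells was -0.01 when cells were gated after thinning to 1000 UMIs.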

How the results depend on the processing

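No paired analysis was possible because each genotype has 1 library. For the same reason no library could be left out. Over 11 other settings the log2 ratio ranged from -0.67 to -0.58 for Trbc2, -1.67 to -1.53 for Trdc, -0.31 to -0.21 for Trac, 0.20 to 0.39 for Trbc1, -0.25 to -0.15 for Cd3e, -0.21 to -0.12 for Cd3d, -0.17 to -0.04 for Cd3g and -0.02 to 0.13 for Cd247. The count of genes past 1.5-fold was 2 except with totals without mitochondrial and ribosomal protein genes, where it was 1, because Trbc2 stood at -0.58. That setting divides by smaller totals. Leaving out the cell indices found in both libraries, chosen after seeing the data, kept it at 2. Without a minimum CPM, 8544 genes passed 1.5-fold against 374. The sign of Trac in Tfh-like cells turned in thinned cells (-0.0088), where the cause was not tested.

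Shares of cells with a UMI were lower at lower depth. In thinned cells Trbc1 and Trbc2 were found together in 11.6% and 11.7% of cells, and without the 5% of cells with most UMIs in 20.2% and 21.3%, and the Trbc1 share of Trbc UMIs was 4.92% in LatY136F. Trac was found in 85.4% and 82.2% of thinned Trdc cells, and in 100% of CD45-KO cells with at least 2 Trdc UMIs. At a minimum of 10 Trbc UMIs, 1.01% and 3.21% of cells had more than 50% Trbc1. Trbc2 was lower by 1.5-fold in 8 gates, against 11 of the 16 set on thinned cells and 7 at no more than 10% mitochondrial counts.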
